A study of Mus musculus with 2 samples.

Results

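The claudins and tight junction genes described here were 10 genes chosen by name, namely Cldn2, Cldn3, Cldn4, Cldn5, Cldn7, Cldn8, Cldn15, Cldn23, Ocln and Tjp1. All 10 were listed among the 17809 genes of the wild-type colon library, and 9 of them, all but Cldn5, among the 15972 genes of the reporter library. The wild-type library held colon cells of C57BL/6 mice, sorted as EpCAM-positive or EpCAM-negative, both without CD45, and mixed in equal parts. The reporter library held GFP-positive colon cells of Pdgfra-H2B-eGFP mice, in which the Pdgfra locus drives a nuclear green fluorescent protein, so it is a library of mesenchyme. Each library pooled tissue of 3 female mice, aged 8 to 12 weeks by the study's methods. Because cells cannot be assigned to mice, there was no replicate, no test was run and no p-value is given. Levels are mean corrected counts per cell of a class, that is, UMI counts adjusted by SCTransform to a common depth, and differences are log2 ratios of class means with a pseudocount of 0.01, called at 2-fold or more.

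Tight junctions seal the space between neighbouring epithelial or endothelial cells. Claudins are the membrane proteins that form their strands. Some, such as claudin-2 and claudin-15, form pores for cations and water, whereas others, such as claudin-3, claudin-4, claudin-7 and claudin-8, are known mainly for tightening the barrier or for blocking a kind of ion, and claudin-5 is the main claudin of blood vessels. Occludin, the product of Ocln, is another membrane protein of the junction, and Tjp1 encodes ZO-1, a scaffold that ties the strands to actin. In the colon the epithelium renews from stem cells at the crypt base and matures towards the surface, where sodium and water are absorbed against steep gradients.

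All 10 genes were found by symbol in GENCODE release M21 on GRCm38. Cldn3 and Cldn4 are neighbours on chromosome 5, where Cldn4 spans 134945119 to 134946934 on the minus strand and Cldn3 spans 134986214 to 134987472 on the plus strand, 39279 bases apart with no annotated gene between them. Each is annotated with 1 exon, as are Cldn5 (chromosome 16, 18776847 to 18778262) and Cldn8 (chromosome 16, 88560828 to 88563183). Cldn15 lies further along chromosome 5 (136966616 to 136975858), Cldn2 on the X chromosome (139800828 to 139811386), Cldn7 on chromosome 11 (69964779 to 69967885) and Cldn23 on chromosome 8 (35824712 to 35826559). Ocln (chromosome 13, 100496507 to 100552718) and Tjp1 (chromosome 7, 65296165 to 65527781) are the long genes of the list. Cldn3 overlaps an antisense gene, Wbscr25, and Tjp1 overlaps Gm44794 and Gm44792 on its own strand and the pseudogene Gm44795 on the other.

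RefSeq start sites with the bases before them (GRCm38.p6) were at hand for 8 of the 10 genes. The 250 bases before the start are shown for 5 of them. Cldn2 and Cldn15 were chosen because both were low in mature absorptive cells, the neighbours Cldn3 and Cldn4 because both were high there, and Cldn5 because its counts lay in endothelial cells. The windows are chrX:139800558-139800807 (plus strand), chr5:136967619-136967868 (plus), chr5:134985964-134986213 (plus), chr5:134946935-134947184 (minus) and chr16:18776597-18776846 (plus), each printed 5′ to 3′ on the strand of its gene, and capitals mark the motif matches described next.
Cldn2: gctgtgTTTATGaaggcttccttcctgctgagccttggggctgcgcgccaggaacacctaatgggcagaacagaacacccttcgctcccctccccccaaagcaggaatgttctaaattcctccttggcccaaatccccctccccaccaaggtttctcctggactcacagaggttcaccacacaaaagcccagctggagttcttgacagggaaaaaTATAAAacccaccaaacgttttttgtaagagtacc
Cldn15: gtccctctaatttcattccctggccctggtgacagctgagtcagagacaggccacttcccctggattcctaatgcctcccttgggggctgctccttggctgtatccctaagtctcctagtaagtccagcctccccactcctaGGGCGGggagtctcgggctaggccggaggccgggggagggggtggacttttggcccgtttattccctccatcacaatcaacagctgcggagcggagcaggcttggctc
Cldn3: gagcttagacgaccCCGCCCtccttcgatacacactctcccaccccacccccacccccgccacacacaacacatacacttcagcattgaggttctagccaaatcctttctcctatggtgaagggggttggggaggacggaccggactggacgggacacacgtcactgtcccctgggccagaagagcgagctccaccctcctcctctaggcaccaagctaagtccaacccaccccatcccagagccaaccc
Cldn4: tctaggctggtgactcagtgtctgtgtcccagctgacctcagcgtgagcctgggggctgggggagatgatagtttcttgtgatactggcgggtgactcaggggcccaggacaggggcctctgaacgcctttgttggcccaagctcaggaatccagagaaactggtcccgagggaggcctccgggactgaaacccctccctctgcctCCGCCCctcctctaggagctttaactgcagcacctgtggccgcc
Cldn5: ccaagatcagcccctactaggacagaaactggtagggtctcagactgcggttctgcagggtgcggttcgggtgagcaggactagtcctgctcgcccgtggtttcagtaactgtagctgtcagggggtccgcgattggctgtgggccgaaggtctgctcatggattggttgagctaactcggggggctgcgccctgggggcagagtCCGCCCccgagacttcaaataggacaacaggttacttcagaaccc

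The windows were searched on both strands for TTTATG (CDX factors of the intestine), CTTTGA (TCF and LEF), AGATAA (the GATA family of factors), the motif GGGCGG (SP and KLF), CGGAAG (ETS) and TATAAA (the TATA box), and no match shared bases with another. Of 32851 windows of the same length in the RefSeq table, 10.8% held TTTATG, 13.8% CTTTGA, 9.99% AGATAA, 32.7% GGGCGG, 13.6% CGGAAG and 12.4% TATAAA. Among the 5 windows shown, TTTATG and TATAAA were found before Cldn2 alone, 244 and 35 bases before its start. The windows of Cldn15, Cldn3, Cldn4 and Cldn5 each held GGGCGG once, and it lay 44 bases before the start in Cldn4 and 45 in Cldn5. Neither CTTTGA nor AGATAA occurred in the 5 windows. A match describes the letters only.

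The classes came from clusters formed without the 10 genes and without 82 other junction genes, and they were named, with the ending “-like”, from marker lists that hold none of the 10. Epithelial classes held 2384 of 7495 cells. They comprised 475 stem-like cells, led by replication genes such as Mcm6 and Mcm3, and 211 transit-amplifying-like cells, which together are called the crypt base here. The absorptive side held 542 enterocyte-like cells in 2 clusters, 198 of them rich in Saa1 and Aqp8 and 344 others. There were 598 goblet-like cells, 312 in a cluster higher in Reg4 and 286 in a cluster led by Plet1, B3gnt6 and Muc2, and 84 enteroendocrine-like cells. Epithelial clusters of 374 cells (led by Krt36) and 100 cells (led by Reg3b) stayed without a type. Named non-epithelial cells numbered 4259, among them 591 blood endothelial-like cells, in a cluster of 97 cells led by Selp and Madcam1 and 494 others, and 42 lymphatic endothelial-like cells. Markers from the naming lists describe the classes and do not test the names, because the lists gave the names. Muc2 averaged 225 in goblet-like cells against 2.93 in other epithelial cells, and Chga averaged 109 in enteroendocrine-like cells against 0.168. Not every listed marker was 2-fold higher in its class. Tnfrsf19, of the stem list, averaged 0.0337 in stem-like cells against 0.0314 in other epithelial cells. The sort removed most immune cells and, with the mixing, sets the shares of the classes, which are therefore not results.

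Total corrected counts per cell ran from 6120 to 16389 in the wild-type and from 2314 to 4432 in the reporter library, with medians of 8972 and 3150. Shares of cells are given with 95% Clopper-Pearson intervals, which cover counting error only. The correction touches every share. Epithelial cells had a median of 3208 genes and named non-epithelial cells of 2539. In the 1065 cells of the latter with the fewest genes (920 to 2096) Cldn7 was above 0 in 87.3%, mostly at a value of exactly 1 (70.5%). In the other named non-epithelial cells its share lay between 14.9% and 19.2%. Cldn3 showed the same split, 69.9% against 8.92% to 10.6%. Means are therefore given first. Fibroblasts, which are not known for epithelial claudins, served as the background and had Cldn7 at a mean of 0.380, Cldn3 at 0.231, Cldn4 at 0.0521 and Cldn15 at 0.0451.

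Epithelial and endothelial cells had different claudins. Of the 10 genes, 8 were at least 2-fold higher in epithelial than in named non-epithelial cells, where 33.5% of 12154 genes were so called, and Cldn5 was the 1 gene called lower, where 19.0% were. Tjp1 was not called, with means of 0.291 on the epithelial and 0.471 on the other side. The log2 ratios of the 8 genes ran from 4.55 for Cldn15 to 5.69 for Cldn4. Between blood endothelial-like and all epithelial cells the same 8 genes were lower (background 41.2%) and 2 were higher (background 15.1%), Cldn5 with a log2 ratio of 6.76 and Tjp1 with 1.67.

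**Figure D1:**
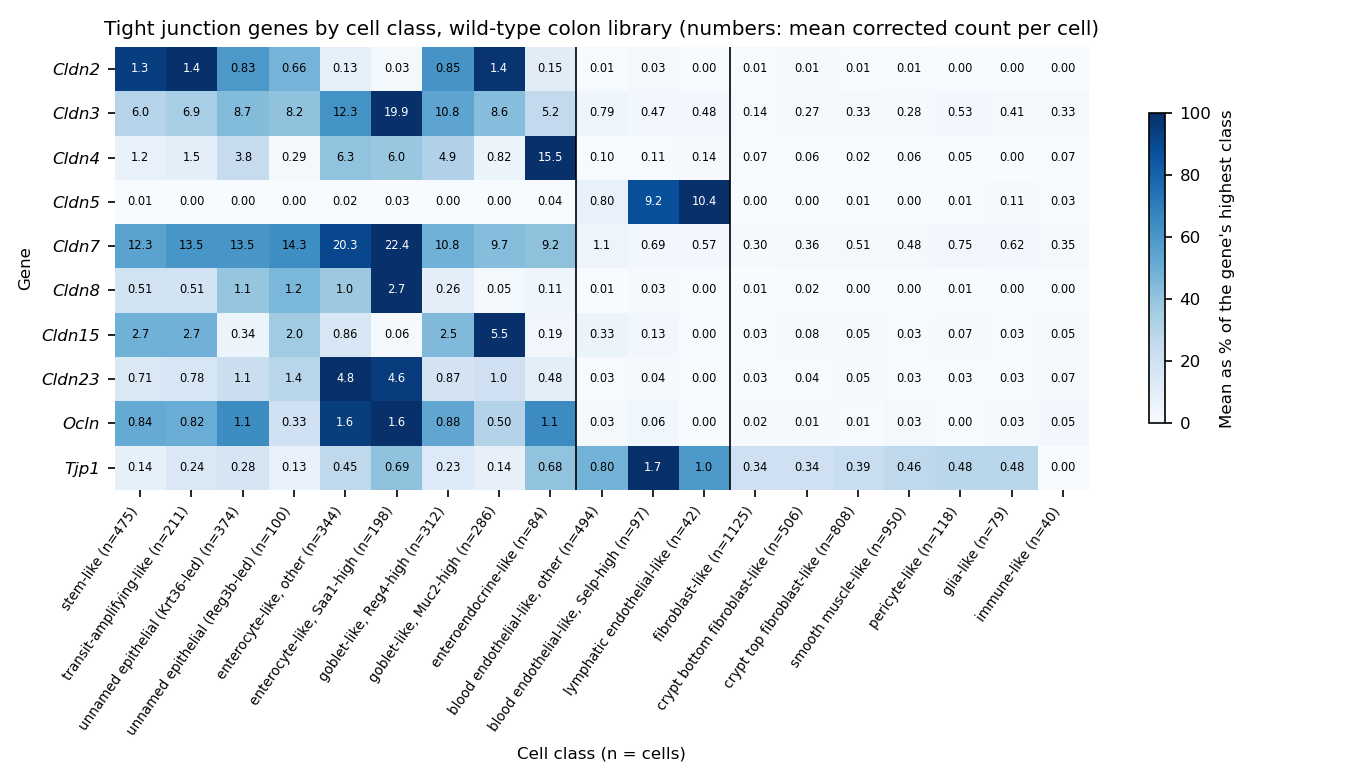
Mean corrected count per cell of the 10 genes (rows) in the 19 named or led classes of the wild-type library (columns, with the number of cells), printed in each square and shaded as a percentage of the gene's highest class. Vertical lines separate the epithelial, endothelial and remaining classes. Cldn2 is darkest at the crypt base and in Muc2-high goblet-like cells, Cldn15 in Muc2-high goblet-like cells, Cldn3, Cldn7 and Cldn8 in Saa1-high enterocyte-like cells, Cldn4 in enteroendocrine-like cells, and Cldn5 in Selp-high and lymphatic endothelial-like cells.

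Along the crypt axis, both genes of pore-forming claudins were lower in enterocyte-like cells, while the genes of most barrier claudins and of ZO-1 were higher there. In enterocyte-like cells over the crypt base, 5 of the 10 genes were at least 2-fold higher (Cldn23, Cldn4, Cldn8, Tjp1 and Cldn3), where 11.6% of 10912 genes were, and 2 were at least 2-fold lower (Cldn2 and Cldn15), where 32.0% were. The median log2 ratio over all those genes was -0.50, and over the 9 genes of the list with a mean of at least 0.05 it was 1.27. Cldn5 fell under that mean in both groups. Cells with over 10% mitochondrial counts made up 81.2% of the enterocyte-like and 39.9% of the crypt base cells, and without such cells, when 102 enterocyte-like and 412 crypt base cells remained, the 7 called log2 ratios kept their signs.

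Cldn2, the gene of a cation and water pore typical of leaky epithelia, had a mean of 1.32 in stem-like and 1.39 in transit-amplifying-like cells. It was at 0.832 in the Krt36-led and 0.660 in the Reg3b-led cluster, at 0.128 in the other enterocyte-like cells and at 0.0303 in the Saa1-high cells. The share of cells above 0 was 69.7% of stem-like cells (95% confidence interval 65.3% to 73.8%) and 1.52% of Saa1-high cells (0.314% to 4.36%), close to the 0.779% of fibroblasts. Enterocyte-like over crypt base gave a log2 ratio of -3.72, which is a 13.2-fold lower mean, and -2.18 without the cells of high mitochondrial share.

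Cldn15, the gene of another pore-forming claudin, differed more between clusters. Its mean was 2.69 in stem-like and 2.68 in transit-amplifying-like cells, 0.860 in the other enterocyte-like cells and 0.0606 in the Saa1-high cells. The untyped clusters differed from each other, with 0.342 in the Krt36-led and 2.03 in the Reg3b-led cells. The log2 ratio of enterocyte-like over crypt base was -2.22, and -1.20 without the cells of high mitochondrial share. Between the 2 enterocyte-like clusters, Cldn15 was lower in the Saa1-high cells by a log2 ratio of -3.62.

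Cldn3 and Cldn7, the genes of widely expressed barrier claudins, were present in nearly every epithelial cell and differed in level rather than in presence. Cldn7 was above 0 in 100% of the cells of each epithelial class, with a mean of 12.3 in stem-like, 13.5 in transit-amplifying-like, 20.3 in other enterocyte-like and 22.4 in Saa1-high cells. Its log2 ratio of enterocyte-like over crypt base, 0.73, did not reach 2-fold. Cldn3 averaged 5.97 in stem-like cells, 6.92 in transit-amplifying-like cells, 12.3 in the other enterocyte-like cells and 19.9 in Saa1-high cells. The interquartile range of its values was 4 to 7.5 in stem-like and 15 to 24 in Saa1-high cells, so these did not overlap. Its log2 ratio of 1.27 fell to 0.81, under 2-fold, without the cells of high mitochondrial share.

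Cldn4, a barrier claudin next to Cldn3 on the chromosome, was patchy where Cldn3 was uniform. In stem-like cells it had a mean of 1.19 but was above 0 in 29.9% of cells (25.8% to 34.2%), with a highest value of 23. In the other enterocyte-like cells the mean was 6.27, the median 4, the interquartile range 0 to 10 and the share above 0 72.7% (67.6% to 77.3%). The log2 ratio of enterocyte-like over crypt base was 2.27. The Reg3b-led cluster, whose leading genes include the enterocyte genes Car1 and Cyp2c55, had a Cldn4 mean of 0.290, lower than in the crypt base.

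Cldn8 and Cldn23 were both higher in the enterocyte-like clusters than at the base, in different ways. Cldn8, the gene of a barrier claudin of distal nephron and colon, averaged 0.509 in stem-like and 0.507 in transit-amplifying-like cells. Its mean was 1.03 in the other enterocyte-like cells and 2.72 in the Saa1-high cells, where 91.9% were above 0 (87.2% to 95.3%). The untyped Reg3b-led cluster had the second highest mean, 1.25, so Cldn8 was not particular to the enterocyte-like clusters. In the Krt36-led cluster Cldn8 made up 3.65% of the summed counts of the 8 claudins (29.4 per cell). In the other enterocyte-like cells it made up 2.25% (45.8 per cell). Cldn23 averaged 0.709 in stem-like, 4.83 in the other enterocyte-like and 4.59 in Saa1-high cells. It had the highest log2 ratio of the list over the crypt base, 2.68, against 1.67 for Cldn8, and stood at 1.76 without the cells of high mitochondrial share. Between the 2 enterocyte-like clusters, 1 of the 10 genes was called higher in the Saa1-high cells, Cldn8 with a log2 ratio of 1.39 (background 6.67%), and 2 were called lower, Cldn15 and Cldn2 (background 11.4%). Only 3 of the 198 Saa1-high cells had Cldn2 above 0. Cells with over 10% mitochondrial counts made up 91.4% of the Saa1-high and 75.3% of the other enterocyte-like cells. Without them, 17 and 85 cells remained.

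Ocln and Tjp1 had low counts throughout. Ocln averaged 0.844 in stem-like and 1.64 in Saa1-high cells, with a log2 ratio of enterocyte-like over crypt base of 0.91, under 2-fold. In the Reg3b-led cluster its mean was 0.330. Tjp1 averaged 0.139 in stem-like, 0.242 in transit-amplifying-like, 0.453 in other enterocyte-like and 0.687 in Saa1-high cells, and its log2 ratio was 1.60, or 2.73 with each cell thinned to 1000 counts. In fibroblasts Tjp1 averaged 0.359, against 0.171 at the crypt base.

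**Figure D2:**
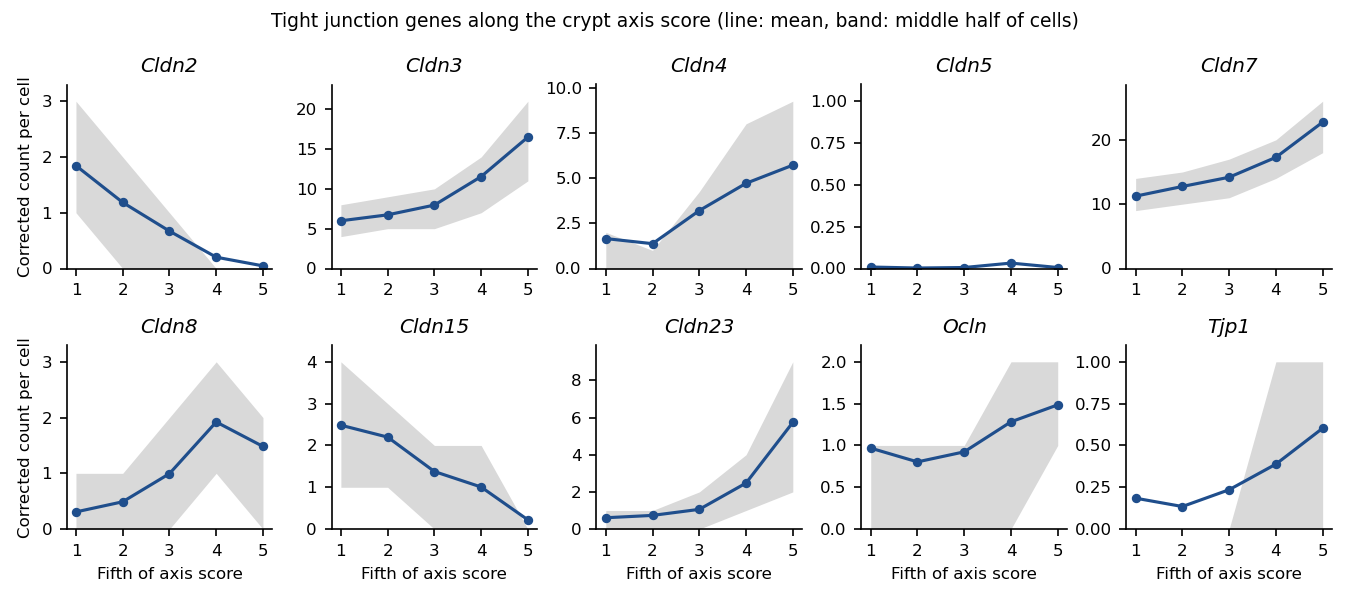
Corrected count per cell (vertical axes) of each gene in 5 bins of the crypt axis score (horizontal axes, 340 or 341 cells a bin), with the mean as a line and the interquartile range of cells as a band. Cldn2 and Cldn15 decline from bin 1 to bin 5, Cldn3, Cldn4, Cldn7, Cldn23, Ocln and Tjp1 end higher than they begin, Cldn8 is highest in bin 4, and Cldn5 stays at or below 0.0324.

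A score that orders single cells gave the shape of these changes. It is not independent of the classes, because its marker lists also named the clusters, and position in the crypt was not measured. The epithelial cells outside the secretory classes were ranked by the mean log value of the enterocyte marker list minus that of the stem marker list and split into 5 bins. The stem cell gene Lgr5 averaged 1.13 in bin 1 and 0.00294 in bin 5, and the surface enterocyte gene Aqp8 0.0323 and 5.85, which the score fixes because both genes are in its lists. Stem-like cells were 63.9% of bin 1, and enterocyte-like cells were 50.6% and 38.5% of bin 5 for the 2 clusters. In bin 5 over bin 1, 6 of the 10 genes were at least 2-fold higher (background 15.1%) and 2 at least 2-fold lower (background 40.3%).

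Cldn2 declined at each step, with means of 1.84, 1.18, 0.671, 0.203 and 0.0471 from bin 1 to bin 5, and a log2 ratio of -5.02 between the ends. Cldn15 went from 2.48 through 2.20, 1.38 and 1.01 to 0.221. Cldn23 went from 0.610 through 0.736, 1.06 and 2.48 to 5.74, with a log2 ratio of 3.21. Cldn8 climbed from 0.308 through 0.490 and 0.994 to 1.92 in bin 4 and was 1.48 in bin 5. Its share of cells above 0 was 81.2% in bin 4 (76.6% to 85.2%) and 65.9% in bin 5 (60.6% to 70.9%), with no replicate to test the difference. Cldn4 averaged 1.65 in bin 1 and 5.71 in bin 5, Cldn3 5.99 and 16.5, and Cldn7 11.2 and 22.7. Among enterocyte-like cells alone, Cldn3 (log2 ratio 0.82), Cldn7 (0.63), Cldn4 (0.37) and Cldn8 (0.15) were not 2-fold higher at the top of the score.

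Cldn2 and Cldn8 were compared in single cells only by whether each was above 0, and their low counts limit what a 0 means. Among the 331 stem-like cells with Cldn2 above 0, Cldn8 was above 0 in 36.6%, and among stem-like cells with Cldn2 at 0 it was above 0 in 41.0%. In the Krt36-led cluster the corresponding shares were 44.8% and 69.1%. Joint counts of Cldn2 and Cldn15 also depend on how common Cldn15 was in each class. Cldn15 was above 0 in 93.1% of stem-like cells with Cldn2 and 90.3% of those without. In the Muc2-high goblet-like cluster these shares were 100% and 99.2%. They were 34.4% and 13.1% in the Krt36-led cluster, and 87.9% and 41.2% in the other enterocyte-like cells. In stem-like cells, 308 cells had both, 23 only Cldn2 and 130 only Cldn15. In the Krt36-led cluster 63 cells had both, 120 only Cldn2 and 25 only Cldn15. In the other enterocyte-like cells 29 had both, 4 only Cldn2 and 128 only Cldn15, and in the Muc2-high goblet-like cluster 165 had both, 0 only Cldn2 and 120 only Cldn15.

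**Figure D3:**
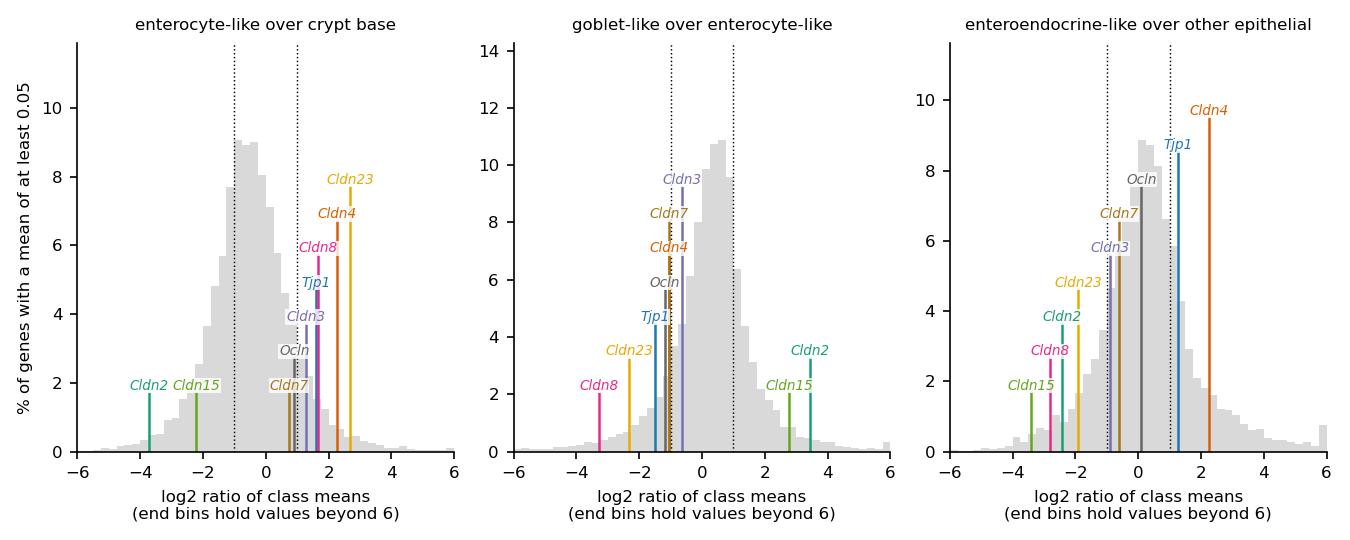
Log2 ratios of class means of the members (coloured lines, labelled) over the distribution of all genes with a mean of at least 0.05 in either class (grey bars, percentage of genes per 0.25 bin), for 3 comparisons. Line heights carry no value, and dotted lines mark 2-fold. In enterocyte-like cells over the crypt base, Cldn2 (-3.72) and Cldn15 (-2.22) lie far to the left and Cldn23 (2.68) to the right, and in goblet-like over enterocyte-like cells the sides are exchanged. The same enterocyte-like cells are the numerator of the former ratio and the denominator of the latter, so the exchange is not a separate result.

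Goblet-like cells had the pore-forming claudins that enterocyte-like cells had at low levels. In goblet-like over enterocyte-like cells, 2 genes were called higher, Cldn2 with a log2 ratio of 3.44 and Cldn15 with 2.78 (background 24.3%), and 6 were called lower, Cldn8, Cldn23, Tjp1, Ocln, Cldn4 and Cldn7 (background 12.4%). The log2 ratios were -3.27 for Cldn8, -2.32 for Cldn23 and -1.50 for Tjp1, whereas those of Ocln (-1.17), Cldn4 (-1.06) and Cldn7 (-1.04) lay near 2-fold. These last 3 genes were under 2-fold at both other cluster resolutions and with log-normalized values. At resolutions 0.8 and 0.3 the goblet-like class held 293 and 301 cells in place of 598, so those ratios compare a different set of cells. Cells with over 10% mitochondrial counts made up 15.1% of goblet-like and 81.2% of enterocyte-like cells. Without them Cldn2 stood at 2.01 and Cldn15 at 1.79, and Cldn4 (-0.50) and Cldn7 (-0.84) were under 2-fold. Goblet-like and enterocyte-like cells were both compared with the same crypt base cells. Against that base, goblet-like cells had 1 gene called higher (Cldn4, 1.21, background 12.6%) and 1 called lower (Cldn8, -1.59, background 16.8%), and both calls were lost under at least 1 alternative.

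Within goblet-like cells the 2 clusters were unlike. Cldn15 averaged 5.54 in the Muc2-high cluster, the highest of all classes and above 0 in 99.7% of cells (lower limit 98.1%), and 2.49 in the Reg4-high cluster. Cldn4 had the opposite order, with 0.818 in Muc2-high and 4.91 in Reg4-high cells, and Cldn8 had 0.0524 and 0.263. Of the 10 genes, Cldn4 (log2 ratio 2.57) and Cldn8 (2.13) were called higher in Reg4-high cells (background 6.04%) and Cldn15 (-1.15) was called lower (background 10.1%). Median genes per cell were 3144.5 in the Reg4-high and 3387.5 in the Muc2-high cluster.

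Enteroendocrine-like cells, the hormone-producing cells of the epithelium, stood out by Cldn4. Its mean there was 15.5, with a median of 8, an interquartile range of 3 to 20.25 and a highest value of 82, and it was above 0 in 81 of the 84 cells. The next highest class, the other enterocyte-like cells, had a mean of 6.27. Over all other epithelial cells, 2 of the 10 genes were called higher (Cldn4, log2 ratio 2.26, and Tjp1, 1.26, background 26.8%) and 4 lower (Cldn15, -3.40, Cldn8, -2.81, Cldn2, -2.42, and Cldn23, -1.91, background 16.1%). With each cell thinned to 1000 counts, Cldn2 was at -0.91. Leading markers of the class were Insl5, Pyy and Chgb, and it held 1 doublet call.

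The levels of different genes cannot be ranked exactly, because counts of 3′ ends depend on how well each transcript is captured, but the make-up of the summed claudin counts can be compared between classes. Cldn7 made up 49.8% of the counts of the 8 claudins in stem-like cells, 40.1% in Saa1-high cells, 35.7% in Muc2-high goblet-like cells and 29.9% in enteroendocrine-like cells. Cldn4 made up 50.2% in enteroendocrine-like cells and from 1.03% to 15.8% in the other epithelial classes. Cldn2 and Cldn15 were 5.33% and 10.9% in stem-like cells, 5.06% and 20.5% in Muc2-high cells, and 0.0544% and 0.109% in Saa1-high cells. The summed mean was 24.7 per stem-like cell, 45.8 per other enterocyte-like cell and 55.8 per Saa1-high cell.

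**Figure D4:**
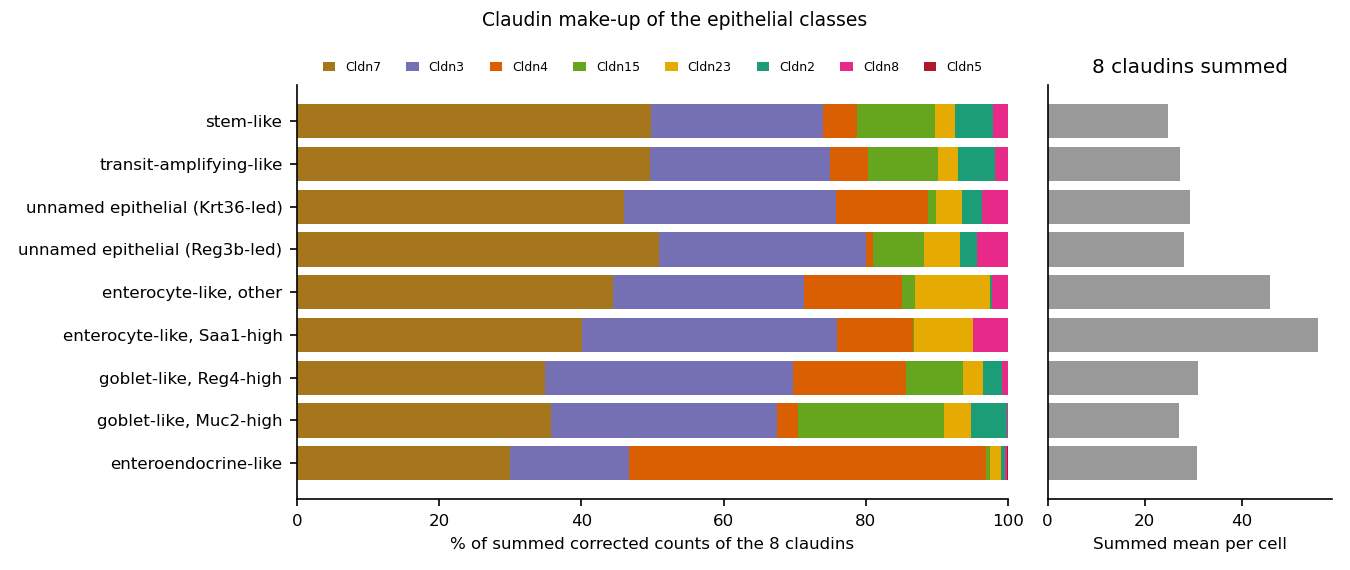
Left, percentage of the summed corrected counts of the 8 claudins that each claudin supplied, by epithelial class. Right, the summed mean per cell of the same classes. Cldn7 and Cldn3 fill most of each bar except in enteroendocrine-like cells, where Cldn4 takes 50.2%, and the sum is highest in Saa1-high enterocyte-like cells (55.8).

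In endothelial cells Cldn5 was high in some clusters and at 0 in most cells of another. It had a mean of 10.4 in lymphatic endothelial-like cells, where 41 of 42 cells were above 0 (97.6%, 87.4% to 99.9%), and of 9.18 in the Selp-high blood endothelial-like cluster, where 83.5% were (74.6% to 90.3%). The Selp-high cluster was led by Selp, Madcam1, Ackr1 and Vwf, genes known from venules. In the 494 other blood endothelial-like cells, led by Esm1, Kdr and Flt1, the mean was 0.796 and 7.29% of cells were above 0 (5.16% to 9.95%). In the order given, median genes per cell were 2075, 2691 and 2003 and the share of cells with over 10% mitochondrial counts was 33.3%, 7.22% and 42.5%, and the part of either in the difference was not tested. In all epithelial cells Cldn5 had a mean of 0.0101, and in fibroblasts of 0.00246.

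**Figure D5:**
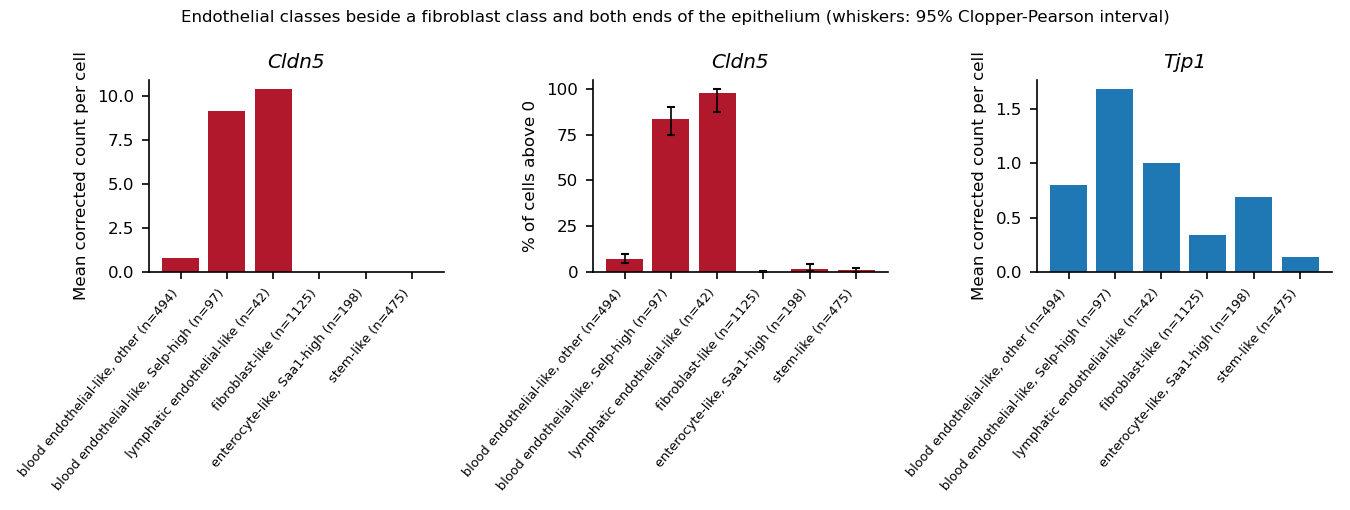
Mean corrected count per cell of Cldn5 (left) and Tjp1 (right) and percentage of cells with Cldn5 above 0 (centre, whiskers are 95% Clopper-Pearson intervals, which cover counting error only) in the endothelial classes, a fibroblast class and both ends of the absorptive epithelium. Cldn5 is above 0 in 83.5% of Selp-high and 97.6% of lymphatic endothelial-like cells and in 7.29% of the other blood endothelial-like cells.

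Between the 2 blood endothelial-like clusters, 2 of the 10 genes were called higher in the Selp-high cells (background 17.6%) and 1 lower (background 5.36%). Cldn5 had a log2 ratio of 3.51, from 3.03 to 3.65 over the alternatives. Tjp1 averaged 1.68 in Selp-high, 1.00 in lymphatic and 0.804 in the other blood endothelial-like cells, and its log2 ratio of 1.05 fell to 0.87 when counts were pooled per class total. Cldn15 averaged 0.134 in Selp-high cells, 0.330 in the other blood endothelial-like cells and 0 in lymphatic endothelial-like cells, where 0 of 42 cells were above 0 (upper limit 8.41%, for cells with a count and not for cells expressing the gene). The epithelial Cldn7 and Cldn3 had means of 1.13 and 0.787 in the other blood endothelial-like cells, both with a median of 1. In all blood endothelial-like cells these were 7.51% and 7.68% of the epithelial means, beside 5.71% for Epcam, 4.76% for Krt8 and 7.60% for Phgr1, which mark epithelium. Cldn15 stood at 14.6% and the remaining 5 epithelial genes of the list (Cldn2, Cldn4, Cldn8, Cldn23 and Ocln) between 1.40% and 3.75%. Endothelial over other named non-epithelial cells, 5 genes were called higher (Cldn5, Cldn15, Cldn3, Tjp1 and Cldn7, background 11.5%) and 0 lower (background 19.2%). Median genes per cell were 2054 in blood endothelial-like cells and 2612 in the other named non-epithelial cells. Cldn7 and Cldn3 were above 0 most often in non-epithelial cells with few genes, as given above. The part of this in their 2 calls was not tested. Doublet calls numbered 7 in the Selp-high cluster and 25 in the other blood endothelial-like cells.

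The 36 other blood endothelial-like cells with Cldn5 above 0 were looked at after these values were seen. Their Cldn5 mean was 10.9, with a median of 4 and a highest value of 94. As a description of cells picked by Cldn5, the genes with the highest ratio over the 458 cells without it, among genes in at least 50% of them, were Mgp (18.4 against 1.28), Jag1 (2.92 against 0.269), Vwf (1.89 against 0.297) and Fbln5 (3.58 against 0.653). Genes known from arteries did not all follow. Sema3g averaged 1.56 against 0.338, Gja5 0.417 against 0.0699 and Bmx 0.472 against 0.0546, each past 2-fold. Sox17 averaged 3.06 against 1.73, Dll4 1.25 against 0.651, Hey1 0.694 against 0.611 and Efnb2 0.861 against 1.25. These genes and Gja4 differed by less than 2-fold. Kdr, a receptor for vascular endothelial growth factor, averaged 1.97 against 7.09. Venous and lymphatic genes were also set against the 458 cells. Selp averaged 0.472 against 0.0393, and 14.7 in the Selp-high cluster. Ackr1 averaged 0.139 against 0.105. Ccl21a, a lymphatic gene, averaged 0.611 against 0, and 147 in lymphatic endothelial-like cells. The lymphatic markers Prox1 and Lyve1 averaged 0.25 against 0.0262 and 0.0556 against 0.00655. Doublet calls numbered 3 of the 36 and 22 of the 458.

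Other junction genes were counted by lists, with the crypt axis first, where 11.6% of all genes were called higher and 32.0% lower. In enterocyte-like over crypt base cells, all 7 desmosome genes passed the mean filter, and 4 were called higher and 0 lower, with Dsp at 2.75 against 1.29, Dsg2 at 2.57 against 1.02, Pkp3 at 0.841 against 0.394 and Evpl at 0.489 against 0.0729. Of 10 adherens junction genes 8 passed, with 4 higher and 1, Nectin1, lower. Cdh1, which encodes E-cadherin, averaged 5.60 against 2.46 and Ctnna1 2.50 against 0.955. The desmosome list had a median log2 ratio of 1.08 and the adherens list of 0.88, beside -0.50 over all genes. Of 14 genes of other tight junction membrane proteins 10 passed, with 4 higher and 2 lower. F11r, the junctional adhesion molecule JAM-A, averaged 2.95 against 1.30, and Ildr1 2.45 against 0.694, whereas Lsr, which like Ildr1 encodes an angulin of tricellular junctions, averaged 0.356 against 1.42. In goblet-like over enterocyte-like cells Lsr was higher (log2 ratio 2.47) and Ildr1 lower (-1.56).

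Against the same background of 11.6% higher and 32.0% lower, 20 of the 21 listed scaffold and polarity genes were measured and 19 passed the filter. In enterocyte-like cells 4 were called higher and 3 lower. Pard6b, a polarity protein of the apical Par complex, averaged 2.59 against 0.411, and Crb3, an apical Crumbs protein, 2.51 against 0.924. The 3 lower genes were Cgnl1, Amot and Amotl1. Of 12 claudin regulators 10 passed and 0 were lower, while 3 were higher, namely Spint1 (2.29 against 0.974), Hnf4a (2.10 against 0.969) and St14 (1.93 against 0.809), and these encode a matriptase inhibitor, a nuclear receptor of absorptive cells and matriptase. Among endothelial junction genes, 4 of 5 were called higher in blood endothelial-like than in epithelial cells (background 15.1%). Esam averaged 6.30 against 0.0361 and Cdh5, or VE-cadherin, 4.45 against 0.0176. Between the Selp-high and the other blood endothelial-like cells, 1 of these 5 genes was called higher (background 17.6%), Cd99l2 at 0.237 and 0.0992, and 0 lower (background 5.36%), with Cdh5 at 5.06 and 4.33 and Esam at 6.08 and 6.34. Jam3, of the tight junction membrane list, averaged 0.247 and 1.74.

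Of 17 other claudins 8 were in the table and 2 passed the mean filter in enterocyte-like over crypt base cells, with 0 higher and 1 lower, Cldn14, at 0.00738 against 0.0933. Cldn14, which encodes a claudin known from the inner ear and kidney, averaged 3.58 in enteroendocrine-like cells, where 41 of 84 cells were above 0 (48.8%, 37.7% to 60.0%), and 0.683 in Reg4-high goblet-like cells, where 38.8% were. After these values were seen, the enteroendocrine-like cells were divided by 2 hormone-related genes. The 59 cells with Tph1, the serotonin enzyme, above Pyy had Cldn14 at a mean of 0.593 and Cldn4 at 18.6. The 25 cells with Pyy at or above Tph1 had Cldn14 at 10.6 and Cldn4 at 8.08, with 22 of them above 0 for Cldn14.

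For each gene the genes outside the junction lists with the most similar pattern were found by Pearson correlation of log2 class means over the 19 classes of the 1 library, among 7303 genes with a class mean of at least 0.5. These are descriptions over classes of unequal size and carry no p. Cldn2 was most like Cbs (r = 0.985), Cldn8 most like Serhl (0.990) and Aoc1 (0.983), and Cldn23 most like Pls1 (0.985), which encodes the microvillus bundling protein plastin-1. Cldn7 was most like Krt8 (0.990), itself a marker used for naming, and Cldn3 most like Atp1b1 (0.990), a sodium pump subunit. Ocln was most like Blnk (0.974), Cldn5 most like Arap3 (0.934), Cldn4 most like Pdzk1ip1 (0.933) and Cldn15 most like Slc35a1 (0.931). Tjp1 had the weakest best match, Lrrc8a (0.910).

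In the reporter library the genes had low counts. Tjp1 was above 0 in 6.94% of the 4409 cells (6.21% to 7.73%, mean 0.0751), Cldn15 in 2.25% (mean 0.0247), Cldn7 in 1.25% (mean 0.0576), Cldn3 in 0.953% (mean 0.0333) and the other 5 genes listed in 0.454% of cells or fewer. Epcam was above 0 in 1.43% of these cells and Col1a1 in 95.4%. Kits and depth scales differ between the libraries, so these values stand beside the wild-type fibroblasts without a comparison.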

How the data were processed

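Single-cell RNA was measured in 2 libraries, the wild-type colon (V3 kit) and the Pdgfra reporter mesenchyme (V2 kit), each from pooled cells of 3 mice. The authors aligned reads to mm10 with Cell Ranger and used Seurat 3.1 in R 3.6.2. The deposited tables hold SCTransform-corrected counts, which are whole numbers but not UMI counts and are treated here as a score, and their natural log after adding 1. The depth before correction is not given by these values.

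Cells of the wild-type library were clustered on the deposited log values (Seurat 5.3.0, R 4.3.3, 3000 variable features, 30 principal components, resolution 0.45) after removing the 10 genes and 82 junction genes from the features, and named from 19 marker lists when at least 3 markers were 2-fold higher in at least 10% of cells and the mean log2 fold reached 1. Scrublet (scanpy 1.11.5) called 163 doublets (2.17%) at a threshold of 0.25, set after the scores were seen. Doublets stayed in. A mixed cluster of 97 cells and 755 cells of clusters without a named lineage were left out of every comparison. Of the 755 cells, 480 lay in a cluster led by haemoglobin genes. That cluster had a mean log2 fold of 0.61 on the epithelial list, under the limit of 1, and of -2.36 on the fibroblast list. Its cells are therefore not called non-epithelial. In those 755 cells Cldn7 averaged 5.46 and was above 0 in 85.0%. Class means, log2 ratios (pseudocount 0.01) and shares were computed with Python 3.11.15, numpy 2.4.6, scipy 1.17.1 and pandas 2.3.3, and figures with matplotlib 3.10.9. The background of each comparison was every gene with a mean of at least 0.05 in either class. With 1 library per group no test was possible. The scripts were tested on simulated data.

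All 10 genes are reported, and the genes most like each were the 3 with the highest correlation. The genes, the marker lists and the 7 junction lists were chosen with earlier results of these data known. Cells, not mice, lie behind each value. Other clusterings, cell filters, depths and scalings were tried as alternatives.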

Additional observations from a re-analysis of the deposited data

How the results depend on the processing

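No paired analysis was possible because each group is 1 library. Of 64 member ratios called at 2-fold, 52 stayed past 2-fold under every alternative that could be run, 12 fell under it in at least 1, and 0 changed sign. The counts of called genes that moved by over 1.5 times were these. Without cells above 10% mitochondrial counts, 2 genes in place of 1 were lower in epithelial than in named non-epithelial cells. In goblet-like over enterocyte-like cells, 3 genes in place of 6 were lower at resolution 0.8, at resolution 0.3 (3) and with log-normalized values (3). In goblet-like over crypt base cells, the count of lower genes was 0 in place of 1 at resolution 0.8, and that of higher genes 0 in place of 1 with 15 principal components and 0 with cells thinned to 1000 counts. Thinning gave 4 in place of 2 higher genes in Reg4-high goblet-like cells and 3 in place of 1 lower genes in Selp-high cells, where leaving out doublets also gave 3. In Selp-high cells 1 gene in place of 2 was higher with counts pooled per class total and 4 without the mean filter. Over the crypt axis score, 2 in place of 6 genes were higher among enterocyte-like cells alone. The cause was not tested. The other 187 counts stayed within 1.5 times. The Reg4-high comparison could be made under 8 and the Selp-high comparison under 9 of the 10 alternatives. Under the rest the goblet-like or blood endothelial-like class had only 1 cluster, so there was no second cluster to compare. For goblet-like cells these were resolutions 0.8 and 0.3, where the class held 293 and 301 cells in place of 598. Corrected counts, 1 library and pooled mice limit every value.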
